A study of Mus musculus with 50 samples.

Results

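Cytosolic ribosomal protein genes code for the proteins of the small (40S) and large (60S) subunits of the ribosome. They were taken here by name: protein-coding mouse genes called Rpl or Rps followed by a number. Only further digits or the letters a, l, x or y could follow, so names such as Rps19bp1 were left out. Rpsa, Rplp0, Rplp1 and Rplp2 were added, and the S6 kinase genes and the pseudogenes were left out. A member also had to reach a mean of 5 counts per 1000000 counted reads (CPM) over all 50 libraries. Of 84 genes with such names among 39056 entries of the gene table, 80 met this minimum: 32 of the 40S subunit, 45 of the 60S subunit and 3 of the 60S stalk, the acidic protuberance that recruits translation factors. Rps16, at a mean of 5.36 CPM, was just inside the minimum and Rpl24, at 4.28 CPM, just outside. Rpl39l and Rpl3l averaged 0.0118 and 0.0133 CPM, and Rpl10l was listed at 0. All 80 members passed the filter on low counts that was used for testing.

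The cells were mouse oligodendrocyte progenitors on a C57BL/6 background, isolated by immunopanning from the cortices of 6-day-old pups, carried through 2 passages and left to differentiate for 12 to 14 h before treatment. Progenitors that were either wild type or homozygous null for Nrf2 (Nrf2 -/-, the gene Nfe2l2, a transcription factor of the oxidative stress response) were left untreated, or received 200 U/ml interferon-gamma (IFN-γ) for 1, 8, 24 or 48 h, or thapsigargin, a blocker of the calcium pump of the endoplasmic reticulum, at a labelled 200 uM for 1 or 8 h. Untreated cells were collected at all 4 hours, which makes 20 groups, each with 2 wild-type or 3 Nrf2 -/- libraries of total RNA. The labels do not say that the libraries of a group came from separate cultures, so p-values reflect only how far these libraries differ, and that spread could be technical. Unless a genotype is named, a comparison sets 5 libraries against 5 and weights both genotypes equally, and values per library are given in the order of the replicate numbers.

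Ribosomal proteins are made in the cytoplasm, carried into the nucleolus and assembled there with ribosomal RNA in near-equal numbers, so their genes are commonly read as one module. Their messengers are among the most abundant of a growing cell. Many begin with a 5′ terminal oligopyrimidine (TOP) tract, a cytidine at the cap followed by further pyrimidines, through which mTOR signalling and the LARP1 protein set how well they are translated and stored. Libraries of total RNA measure the amount of these messengers and not their translation.

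The start sites are shown because the TOP tract is the sequence these genes are known for. RefSeq promoter windows of the GRCm38.p6 assembly, from 250 bases before to 50 bases after each annotated start, matched 60 of the 80 members by symbol. The lines below give 20 bases before the start and 20 from the start on, and the capitals mark the unbroken run of C and T that covers the start base.
Rps6 (chr4:86857348-86857387, minus strand): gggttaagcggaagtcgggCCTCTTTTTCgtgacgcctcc
Rpl7a (chr2:26910787-26910826, plus strand): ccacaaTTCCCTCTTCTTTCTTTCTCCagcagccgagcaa
Rpl27a (chr7:109519175-109519214, plus strand): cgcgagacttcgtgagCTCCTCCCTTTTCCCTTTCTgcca
Rplp2 (chr7:141447631-141447670, plus strand): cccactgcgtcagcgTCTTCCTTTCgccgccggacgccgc
Rps27 (chr3:90213629-90213668, minus strand): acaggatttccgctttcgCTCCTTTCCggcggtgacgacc
Rplp0 (chr5:115559447-115559486, plus strand): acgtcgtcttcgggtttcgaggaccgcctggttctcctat
Rpl6 (chr5:121204481-121204520, plus strand): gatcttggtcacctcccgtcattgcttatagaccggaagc
Rpl36al (chr12:69184048-69184087, minus strand): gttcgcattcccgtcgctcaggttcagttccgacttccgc
Rps27l (chr9:66946066-66946105, plus strand): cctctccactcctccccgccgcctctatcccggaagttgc
The first 5 hold such a run of 10, 21, 20, 10 and 9 bases, while the annotated starts of Rplp0, Rpl6, Rpl36al and Rps27l fall on a purine and have none. An annotated start can lie some bases away from the one used in these cells, and no data here map the 5′ ends.

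A C at the annotated start followed by at least 4 pyrimidines was found in 13 of the 60 members (21.7%), against 448 of 16467 protein-coding genes in the same table (2.72%). A pyrimidine run of 5 or more bases over the start was found in 20 members (33.3%), against 10.3% of all genes. The letters CTTTCC stood on the gene's strand between 10 bases before and 20 bases after the start in 9 members (15%), against 1.48% of all genes, and on the opposite strand of that window in 0 members, against 1.38%. In the whole window and on both strands, CCGGAAG, the core that ETS family factors bind, was present in 25 members (41.7%), against 13.4% of all genes. TATAAA was present in 7 members (11.7%), against 14.3%. These counts describe letters and not bound sites.

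Depth ran from 32252272 to 54657205 counted reads per library, with a median of 36046423. Per kilobase of the most abundant transcript, the median member stood at 447 CPM per kb. The highest levels on this scale were those of Rps24 (1040 CPM per kb), a 40S protein mutated in some Diamond-Blackfan anaemia, Rps18 (940 CPM per kb) and the stalk gene Rplp1 (913 CPM per kb). The lowest were those of Rps16 (10.3 CPM per kb), the paralog Rpl7l1 (46.9 CPM per kb) and Rpl13a (61.2 CPM per kb), whose protein leaves the ribosome in interferon-treated myeloid cells to silence inflammatory messengers.

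The genome holds many processed copies of these genes: 284 further entries named Rpl or Rps were pseudogenes or non-coding and were left out. How reads that match several copies were counted is not given in the sources used here, so the members were also read in the deposited isoform table, whose estimated counts come from a different quantifier. The median member had 0.895 times its gene-table level there, and 73 of 80 lay within 2-fold. Rps6 was 2.16-fold and Rpl13a 8.66-fold higher in the isoform table. Rpl12 (0.0843), Rps12 (0.0843), Rpl27 (0.161), Rpl10 (0.291) and Rpl5 (0.306) reached only those fractions of their gene-table level. Rpl24 stood at 244 CPM in the isoform table, 57.1-fold higher, while Rps16 was low in both (5.43 CPM in the isoform table). Of the 80 members, 9 share at least 10% of their exon bases with another annotated gene on the same strand. Levels of these named genes are therefore uncertain, and their folds below are those of the gene table unless the isoform table is named.

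**Figure D1:**
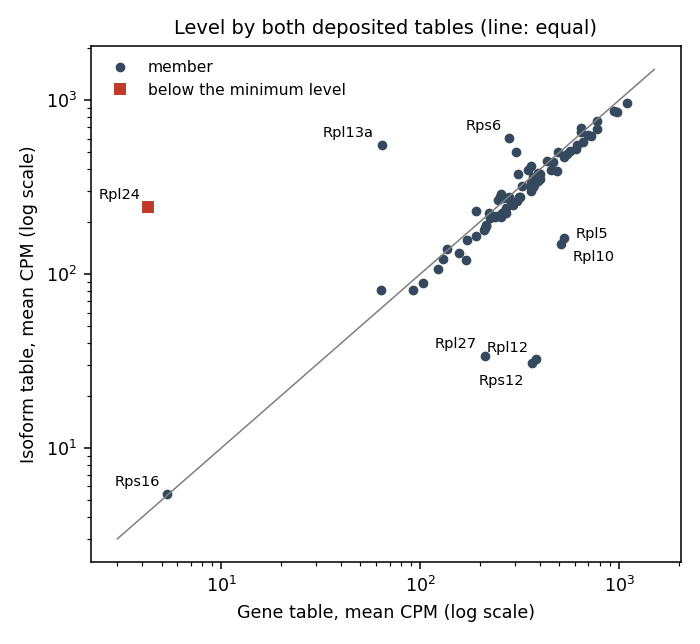
Mean level of each member in the gene table (x axis, CPM, log scale) against the isoform table (y axis, CPM, log scale), with the line of equal values. Most of the 80 points lie along the line, Rpl24 (red square, under the minimum) and Rpl13a lie above it, and Rpl12, Rps12, Rpl27, Rpl10 and Rpl5 lie below it.

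In untreated cells the members took a falling share of the reads as the hours passed. Their summed share of all counted reads had a median of 3.68% at 1 h (3.41 to 3.74%), 3.47% at 8 h (2.84 to 3.50%), 2.16% at 24 h (1.87 to 2.30%) and 1.60% at 48 h (1.47 to 1.86%), each over 5 libraries. The ranges at 8, 24 and 48 h did not overlap, while those at 1 and 8 h did. In bulk libraries, fewer cells of a type and less RNA per cell cannot be told apart. Over the same hours the summed level of 12 oligodendrocyte-lineage markers, which include the myelin genes, went from 7438 to 8367 CPM at 1 h to 9061 to 10260 CPM at 8 h, 16710 to 20950 CPM at 24 h and 30480 to 35540 CPM at 48 h. The part of this in the members' share was not tested.

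**Figure D2:**
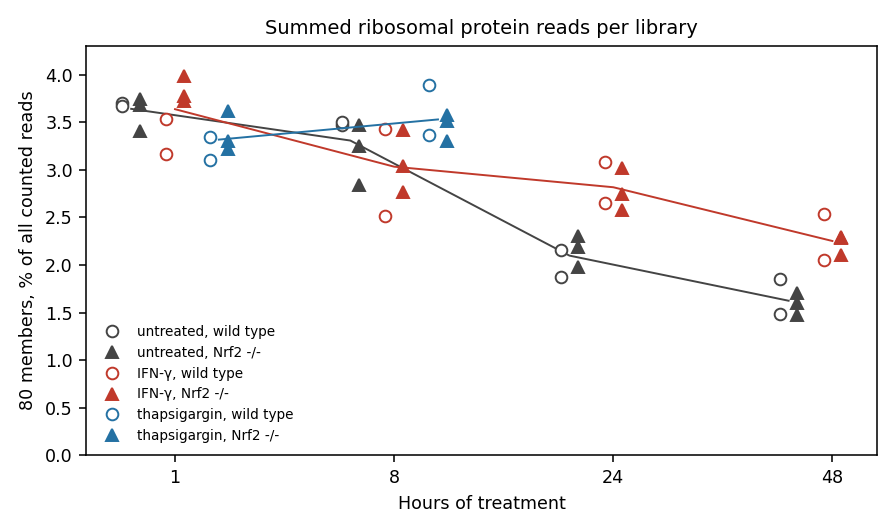
Summed share of the 80 members (y axis, % of all counted reads) in each library by hours of treatment (x axis). Circles are wild-type and triangles Nrf2 -/- libraries, and the lines join the means of the 5 libraries of each treatment. Untreated libraries at 24 and 48 h sit below every IFN-γ library of the same hour.

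Between 8 and 24 h without treatment, 77 of 80 members fell and 0 rose (edgeR quasi-likelihood test, Benjamini-Hochberg adjusted p under 0.05 over 16460 genes), where 24.4% of all genes were called lower. The median member changed by −0.49 on the log2 scale, against −0.02 over all genes. Every library at 24 h was below every library at 8 h for 66 members, against 16% of all genes. The fall included 31 of 32 40S members (median −0.52), 43 of 45 60S members (median −0.46) and all 3 stalk members (median −0.55). Rpl12, a 60S protein at the base of the stalk, stood at 436 and 423 CPM in the wild-type and 439, 403 and 341 CPM in the Nrf2 -/- libraries at 8 h and at 246 and 229 CPM in the wild-type and 228, 234 and 264 CPM in the Nrf2 -/- libraries at 24 h, so that the groups did not overlap. Its log2 change of −0.78 ± 0.069 (SE) was the largest (edgeR adjusted p = 2.08e-12).

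Rplp0, the stalk protein that anchors Rplp1 and Rplp2 on the large subunit and a frequent reference gene in quantitative PCR, stood at 1366 and 1279 CPM in the wild-type and 1324, 1184 and 1062 CPM in the Nrf2 -/- libraries at 8 h. At 24 h it stood at 752 and 668 CPM in the wild-type and 722, 742 and 828 CPM in the Nrf2 -/- libraries, below every library of 8 h. It fell by 0.77 ± 0.073 on the log2 scale (edgeR adjusted p = 1.08e-11). The 3 members without a call were Rpl11 (−0.22), Rpl38 (−0.16) and Rps16 (−0.05).

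Between 24 and 48 h the untreated level fell again in 76 members and rose in 0, where 25.7% of all genes were called lower, with a member median of −0.36 against 0.03 over all genes. Every library at 48 h was below every one at 24 h for 65 members, against 18.4% of all genes. Rpl22l1, a paralog of Rpl22, stood at 69.6 and 61.0 (wild type) and 65.2, 67.2 and 80.1 CPM (Nrf2 -/-) at 24 h and at 46.9 and 37.3 (wild type) and 41.7, 40.9 and 46.6 CPM (Nrf2 -/-) at 48 h. These groups did not overlap, and its change of −0.68 ± 0.083 was the largest (edgeR adjusted p = 7.45e-09). Rpl38, a 60S protein known for its part in translating Hox messengers, had shown no call before 24 h and then fell by 0.65 ± 0.071 (edgeR adjusted p = 4.08e-10), from 253 and 227 (wild type) and 242, 263 and 266 CPM (Nrf2 -/-) to 178 and 135 (wild type) and 159, 173 and 151 CPM (Nrf2 -/-). Rpl10, which completes the 60S subunit at the peptidyl transferase centre, fell by 0.64 ± 0.063 (edgeR adjusted p = 2.35e-11). The members without a call were Rpl41, Rpl6 (−0.13), Rps16 and Rps27l (0.04).

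Between 1 and 8 h the untreated cells differed little: 10 of 80 members fell and 0 rose, where 16.7% of all genes were called lower. The members' share was below that of all genes, and their median was −0.09. Rpl17, a 60S protein at the polypeptide exit, stood at 396 and 445 (wild type) and 397, 396 and 394 CPM (Nrf2 -/-) at 1 h and at 311 and 304 (wild type) and 338, 318 and 263 CPM (Nrf2 -/-) at 8 h, without overlap, a change of −0.41 ± 0.063 (edgeR adjusted p = 1.85e-06). Rpl22 changed by −0.24 ± 0.061 (edgeR adjusted p = 0.00194) and Rpl11 by −0.31 ± 0.11 (edgeR adjusted p = 0.0272). Rpl11, which joins Rpl5 and 5S RNA in a particle that can bind Mdm2, ranged from 239 to 347 CPM at 1 h and from 204 to 253 CPM at 8 h, with overlap. The count was 6 without wild-type untreated 1 h replicate 2 and 17 without Nrf2 -/- untreated 8 h replicate 1, and Rpl11 lost its call without the former (−0.17, edgeR adjusted p = 0.296). It also lost it without replicate 1 of the 8 h untreated libraries in wild type (edgeR adjusted p = 0.11) or in Nrf2 -/- (0.0728), without replicate 3 of the untreated Nrf2 -/- libraries at 1 h (0.0527), in the isoform table (0.0899) and without the filter on low counts (0.0612). DESeq2 called 17 members lower, and 4 were called in the isoform table.

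In the first hour of IFN-γ, no member was called in either direction (edgeR 0, DESeq2 0), where 3.64% of all genes were called by edgeR. At an unadjusted p under 0.05 there were 0 members, against 10.7% of all genes. The median member changed by −0.00. At 8 h again 0 members were called by edgeR and 0 by DESeq2, where 39.8% of all genes were called by edgeR. An unadjusted p under 0.05 was reached by 2 members, against 46.1% of all genes. The median at 8 h was −0.05. The count depended on single libraries: without wild-type IFN-γ 8 h replicate 2, 7 members were called (1 higher, 6 lower), while leaving out Nrf2 -/- IFN-γ 8 h replicate 1 gave 2 that were called lower. Every 95% interval at 8 h but that of Rps16 lay within 0.5 of 0 on the log2 scale.

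From 24 h on, the members were higher with IFN-γ than without. At 24 h 74 of 80 rose and 0 fell, where 27.6% of all genes were called higher and 28.4% lower. The median member was higher by 0.31 on the log2 scale (1.24-fold), against −0.00 over all genes. Every IFN-γ library was above every untreated one for 38 members, against 20.1% of all genes. Calls covered 31 of 32 40S members (median 0.34), 40 of 45 60S members (median 0.31) and all 3 stalk members (median 0.26). The summed share of reads was 2.58 to 3.09% with IFN-γ (median 2.74%) and 1.87 to 2.30% without.

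Rps20, a 40S protein of the head, stood at 227 and 199 CPM in the wild-type and 206, 224 and 229.7 CPM in the Nrf2 -/- libraries without IFN-γ at 24 h. With IFN-γ it stood at 318 and 351 CPM in the wild-type and 272, 329 and 312 CPM in the Nrf2 -/- libraries, above every untreated library. Its log2 difference was 0.56 ± 0.067 (edgeR adjusted p = 1.95e-09). Rps19, the 40S protein most often mutated in Diamond-Blackfan anaemia, went from 245 and 219.6 (wild type) and 239, 248 and 254 CPM (Nrf2 -/-) to 351 and 363 (wild type) and 305, 358 and 333 CPM (Nrf2 -/-), a difference of 0.52 ± 0.067 without overlap (edgeR adjusted p = 1.12e-08). Rpl13 had the largest called difference, 0.62 ± 0.113 (edgeR adjusted p = 1.43e-05). It stood at 221 and 204 (wild type) and 238, 209.8 and 241 CPM (Nrf2 -/-) untreated and at 483 and 317 (wild type) and 298, 286 and 285 CPM (Nrf2 -/-) with IFN-γ, so wild-type replicate 1 was well above the other 4. Without that library the difference was 0.48 (edgeR adjusted p = 0.000642).

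The 6 members without a call at 24 h were Rpl27, Rpl38, Rpl41, Rpl5, Rpl7 and Rps16. Rpl5, the partner of Rpl11 in the 5S particle, stood at 419 and 408 (wild type) and 423, 420.3 and 464 CPM (Nrf2 -/-) untreated and at 406 and 478 (wild type) and 433, 490.2 and 479 CPM (Nrf2 -/-) with IFN-γ, and these groups overlapped. Its difference was 0.10 ± 0.058 in the gene table (edgeR adjusted p = 0.154) and −0.15 in the isoform table (edgeR adjusted p = 0.0873), without a call in either. Rpl38 was the 1 member with a value below 0 (−0.16 ± 0.071, edgeR adjusted p = 0.056). It was lower with IFN-γ in the Nrf2 -/- libraries taken alone (−0.23 ± 0.089, edgeR adjusted p = 0.0288).

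At 48 h of IFN-γ 77 members rose and 1 fell, where 27.3% of all genes were called higher and 28.5% lower, with a member median of 0.42 (1.34-fold) against −0.01 over all genes. Every IFN-γ library was above every untreated one for 68 members, against 19% of all genes, and the summed share was 2.05 to 2.53% with and 1.47 to 1.86% without IFN-γ. Rplp0 stood at 579 and 485 CPM in the wild-type and 516, 479.7 and 537 CPM in the Nrf2 -/- libraries untreated and at 985 and 719 CPM in the wild-type and 829, 734 and 853 CPM in the Nrf2 -/- libraries with IFN-γ, without overlap. It rose by 0.67 ± 0.073 (edgeR adjusted p = 2.54e-10). Rpl12 rose by 0.66 ± 0.069 (edgeR adjusted p = 1.07e-10), from 182 and 155 (wild type) and 161, 157 and 172 CPM (Nrf2 -/-) to 318 and 236 (wild type) and 248, 231 and 263 CPM (Nrf2 -/-), and Rps20 by 0.66 ± 0.067 (edgeR adjusted p = 4.93e-11). Rps6, the 40S protein phosphorylated by S6 kinase downstream of mTOR, went from 176 and 152 (wild type) and 166, 149.8 and 159.6 CPM (Nrf2 -/-) to 253 and 200.2 (wild type) and 221, 197 and 222 CPM (Nrf2 -/-), a difference of 0.45 ± 0.068 (edgeR adjusted p = 4.25e-07).

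The member that fell at 48 h was Rpl6, a 60S protein. It stood at 337 and 269.8 (wild type) and 317, 281 and 315 CPM (Nrf2 -/-) untreated and at 208 and 241 (wild type) and 288, 312 and 227 CPM (Nrf2 -/-) with IFN-γ. The lowest IFN-γ libraries lay below all untreated ones, but the groups overlapped. Its log2 difference was −0.29 ± 0.063 (edgeR adjusted p = 0.000157), with −0.43 in wild-type and −0.14 in Nrf2 -/- libraries, of which only the former passed the test (edgeR adjusted p = 0.000396 and 0.142). At 24 h Rpl6 had been higher with IFN-γ (0.24 ± 0.063, edgeR adjusted p = 0.00142), and the response at 48 h differed from that at 24 h by −0.53 ± 0.089 (edgeR adjusted p = 6.25e-06). Its direction at 48 h was the same in the isoform table (−0.28). Rps16 and Rps2 had no call.

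**Figure D3:**
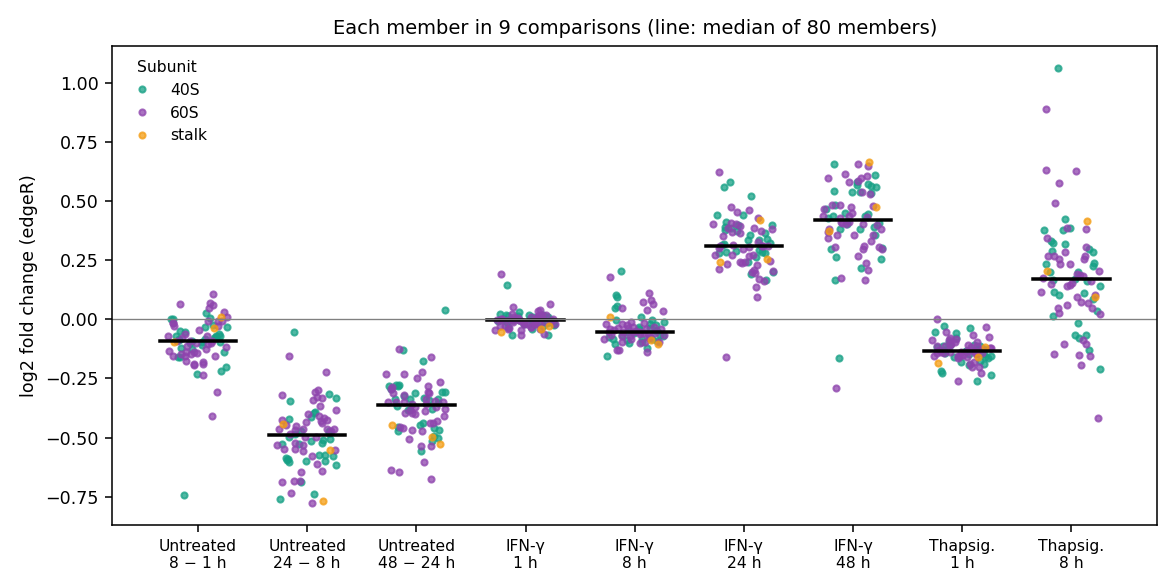
log2 fold change of each member (y axis, edgeR) in 9 comparisons (x axis), coloured by subunit, with the median as a black line. The clouds lie below 0 for untreated 24 against 8 h and 48 against 24 h, around 0 for IFN-γ at 1 and 8 h, above 0 for IFN-γ at 24 and 48 h, and spread from −0.42 to 1.07 for thapsigargin at 8 h.

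The untreated libraries of 24 and 48 h served both the time course and the IFN-γ comparison, so the values of each treatment over time are given beside them. With IFN-γ, 24 members were lower at 8 than at 1 h (21.1% of all genes called lower), 25 lower at 24 than at 8 h (16.3%) and 66 lower at 48 than at 24 h (21.3%), and 0 were higher in any of these. The medians were −0.12, −0.15 and −0.27, against −0.09, −0.49 and −0.36 without treatment. The first 2 counts depended on the scaling and the table: the 24 became 53 by library size only and 6 in the isoform table, and the 25 became 1 and 2. They also depended on single libraries: the 24 became 15 without wild-type IFN-γ 1 h replicate 1, and leaving out wild-type IFN-γ 8 h replicate 1 gave 6. The 25 became 11 without Nrf2 -/- IFN-γ 24 h replicate 1, 15 without Nrf2 -/- IFN-γ 8 h replicate 1, and 10 without either wild-type IFN-γ 24 h replicate 1 or wild-type IFN-γ 8 h replicate 2. In Rplp0, the IFN-γ libraries ranged from 1147 to 1393 CPM at 1 h, from 1097 to 1288 CPM at 8 h, from 892 to 1048 CPM at 24 h and from 719 to 985 CPM at 48 h. The oligodendrocyte-lineage markers summed to 7237 to 8612 CPM at 24 h and 15980 to 19830 CPM at 48 h of IFN-γ, below every untreated library of the same hour, and the part of this in the members' difference was not tested.

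Thapsigargin drains calcium out of the endoplasmic reticulum and sets off the unfolded protein response. After 1 h of it, 8 of 80 members fell and 0 rose, where 7.52% of all genes were called lower. This count was near the share of all genes. The median member changed by −0.13, against −0.00 over all genes, and 79 of 80 values were below 0. Every thapsigargin library was below every untreated one for 14 members, against 5.94% of all genes. The 8 were Rpl21, Rpl27, Rpl35, Rpl7a, Rpl9, Rplp2, Rps13 and Rps21. Rpl9 stood at 672 and 716 (wild type) and 710.5, 659 and 657 CPM (Nrf2 -/-) untreated and at 588 and 554 (wild type) and 519, 627 and 569 CPM (Nrf2 -/-) with thapsigargin, without overlap, a difference of −0.26 ± 0.075 (edgeR adjusted p = 0.01). Rps21 (−0.26 ± 0.086, edgeR adjusted p = 0.0265) and Rps13 (−0.22 ± 0.068, edgeR adjusted p = 0.0175) overlapped between the groups. Each of these 3 lost its call in the isoform table.

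How many members passed at 1 h depended on nearly every library. The count was 1 without wild-type thapsigargin replicate 2 or wild-type untreated replicate 2, 2 without wild-type thapsigargin replicate 1 and 4 without wild-type untreated replicate 1. It was 3 without Nrf2 -/- thapsigargin replicate 1 or Nrf2 -/- untreated replicate 1, 5 without Nrf2 -/- thapsigargin replicate 3, 15 without Nrf2 -/- untreated replicate 3 and 29 without Nrf2 -/- thapsigargin replicate 2. DESeq2 called 25 members lower, and scaling by library size alone called 0. The median stayed between −0.17 and −0.12 in the fits that left out 1 library.

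At 8 h of thapsigargin the members' values spread widely. There 48 rose and 2 fell, where 34.3% of all genes were called higher and 32.9% lower, with a median of 0.17 (1.13-fold) against 0.01 over all genes. With scaling by library size alone the split was 17 higher and 9 lower, with a median of 0.07 against −0.09 over all genes. The untreated libraries include Nrf2 -/- replicate 3, which had 7.62 CPM of Nfe2l2 and the lowest summed share of them (2.84%). Without that library fewer members rose, as given with the genotypes below. Every thapsigargin library was above every untreated one for 27 members, against 26.3% of all genes, and below for 1, against 25.2%. The first share was not far above that of all genes, and the second was well below it. Calls upward covered 19 of 32 40S members (median 0.19), 27 of 45 60S members (median 0.16) and 2 of 3 stalk members (median 0.21).

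Rpl36al, a paralog whose product is nearly the same as that of Rpl36a, stood at 65.4 and 66.5 CPM in the wild-type and 64.4, 62.6 and 53.9 CPM in the Nrf2 -/- libraries untreated. With thapsigargin it stood at 126 and 102 CPM in the wild-type and 114, 126 and 119 CPM in the Nrf2 -/- libraries, above every other library of the series. Its log2 difference was 0.89 ± 0.067 (edgeR adjusted p = 4.7e-15), with 0.79 in wild-type and 0.99 in Nrf2 -/- libraries. Rpl36a itself stood at 162 and 165 (wild type) and 167, 148 and 134 CPM (Nrf2 -/-) untreated and at 149 and 133 (wild type) and 134, 167 and 149 CPM (Nrf2 -/-) with thapsigargin, with overlap and no call (−0.10 ± 0.068, edgeR adjusted p = 0.176). Reads that match both genes could be assigned to either, so the split is uncertain, though the isoform table gave 0.85 for Rpl36al and −0.16 for Rpl36a.

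Rpl10 rose by 0.63 ± 0.063 (edgeR adjusted p = 1.09e-11), from 588 and 565 (wild type) and 554, 523 and 467 CPM (Nrf2 -/-) to 930.4 and 778 (wild type) and 819.7, 849 and 836 CPM (Nrf2 -/-), without overlap. Rplp0 rose by 0.42 ± 0.072 (edgeR adjusted p = 3.05e-06), to 1835 and 1626 (wild type) and 1591, 1698 and 1571 CPM (Nrf2 -/-), its highest levels in the series. Rps16 had the largest difference, 1.07 ± 0.353 (edgeR adjusted p = 0.00855), but at low levels of 2.69 and 3.49 (wild type) and 2.79, 3.85 and 8.67 CPM (Nrf2 -/-) untreated and 5.92 and 8.38 (wild type) and 7.28, 9.86 and 12.0 CPM (Nrf2 -/-) with thapsigargin, which overlapped. Rpl37a, a zinc-binding 60S protein, fell by 0.42 ± 0.07 (edgeR adjusted p = 1.61e-06), from 311 and 305 (wild type) and 314, 280.5 and 255 CPM (Nrf2 -/-) to 244 and 205 (wild type) and 218, 221 and 214 CPM (Nrf2 -/-), and every thapsigargin library was below every untreated one. Rpl7a fell by 0.19 ± 0.061 (edgeR adjusted p = 0.00521) and had no call without wild-type thapsigargin 8 h replicate 2 (−0.13, edgeR adjusted p = 0.0938). Rpl5 was called in opposite directions by the tables, 0.27 ± 0.058 in the gene table (edgeR adjusted p = 9.66e-05) and −0.17 in the isoform table (edgeR adjusted p = 0.040).

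**Figure D4:**
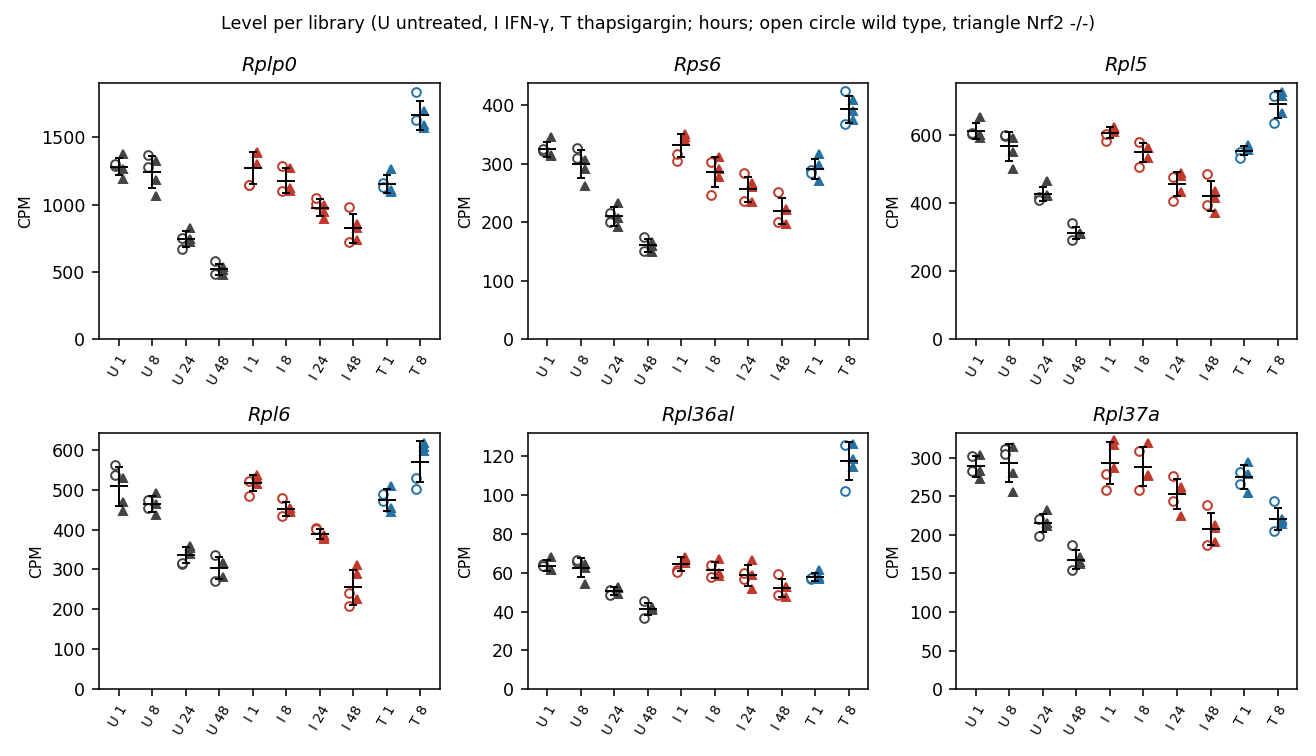
Level of 6 members (y axes, CPM) in each library by treatment and hour (x axes), with the mean and SD of 5 libraries as black bars. Rplp0, Rps6 and Rpl5 fall with hours without treatment and less with IFN-γ, Rpl6 at 48 h of IFN-γ reaches below its untreated libraries, and Rpl36al is highest and Rpl37a lower after 8 h of thapsigargin.

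Set against IFN-γ at the same 8 h, thapsigargin libraries had 54 members higher and 3 lower (34.1% and 33.8% of all genes), with a median of 0.20. The 3 were Rpl37a (−0.38), Rpl39 (−0.23) and Rpl7a (−0.18), and the last 2 had no call without wild-type thapsigargin 8 h replicate 2 or wild-type IFN-γ 8 h replicate 2. From 1 to 8 h of thapsigargin 52 members rose and 1 fell (31.6% and 33.4% of all genes), with a median of 0.21. Over those hours the untreated median was −0.09 and that with IFN-γ −0.12. At 8 h the thapsigargin libraries had 3154 to 3558 CPM of the oligodendrocyte-lineage markers, against 9061 to 10260 CPM untreated, and its part in these values was not tested.

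Several members have further roles or particular places in the ribosome. Rpsa, which is also the precursor of a laminin receptor, stood at 691 and 593 (wild type) and 659, 629.7 and 623 CPM (Nrf2 -/-) untreated at 48 h and at 906 and 784 (wild type) and 814, 776 and 787 CPM (Nrf2 -/-) with IFN-γ, without overlap (0.36 ± 0.061, edgeR adjusted p = 3.81e-06). Rps3, which lies at the messenger entry and also takes part in DNA repair, stood at 512 and 407 (wild type) and 466, 466 and 448 CPM (Nrf2 -/-) and 612 and 554 (wild type) and 562, 530.2 and 563 CPM (Nrf2 -/-) in the same groups, again without overlap (0.30 ± 0.06, edgeR adjusted p = 3.8e-05). Rps27a, made as a fusion with ubiquitin, rose by 0.44 ± 0.089 there (edgeR adjusted p = 6.62e-05). At 8 h of thapsigargin Rpsa (0.23), Rps3 (0.14) and Rps27a (0.33) were called higher.

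Of the stalk partners, Rplp1 and Rplp2 rose by 0.48 and 0.37 at 48 h of IFN-γ, and with thapsigargin at 8 h Rplp2 rose by 0.21 while Rplp1 had no call (0.10 ± 0.062). Rpl11 and Rpl5 of the 5S particle rose by 0.33 and 0.44 at 48 h of IFN-γ. Rpl11 had no call with thapsigargin at 8 h (−0.15 ± 0.11), where it ranged from 159 to 260 CPM against 204 to 253 CPM untreated. Rpl3, which has a muscle paralog in Rpl3l, rose by 0.37 and 0.41 at 24 and 48 h of IFN-γ and by 0.26 at 8 h of thapsigargin. Rpl39, the small protein of the exit tunnel, and Rps4x, coded on the X chromosome, rose by 0.60 and 0.56 at 48 h of IFN-γ and had values of −0.15 and −0.13 at 8 h of thapsigargin, without a call.

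The members with paralog names did not keep a fixed ratio to their partners. Reads of Rpl36al had a median of 38.5% of those of Rpl36a at 1 h untreated, 40.4% at 8 h, 52.1% at 24 h and 61.1% at 48 h, and 79.4% at 8 h of thapsigargin (75.4 to 85.5%). Rpl22l1 went from 41.5% of Rpl22 at 8 h untreated to 23.7% at 48 h, where IFN-γ libraries had 31.4%, and it reached 47.8% with thapsigargin at 8 h. The range with IFN-γ at 48 h (29.96 to 33.1%) did not overlap the untreated one (23.5 to 26.8%). Rps27l, a target of p53, stood at 34.7% of Rps27 at 8 h untreated and 45.6% at 48 h, and at 25.4% with thapsigargin at 8 h (23.6 to 26.6%). Rpl7l1, a relative of Rpl7, stayed between 10.98 and 15.3% in every library. These ratios are descriptions without a test.

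Members were also split by the annotated start. Of the 60 with a window, 18 had a pyrimidine run of 5 or more bases at the first listed start and 42 had not. At 24 h of IFN-γ, 17 of the 18 and 38 of the 42 rose, with medians of 0.30 and 0.31. At 48 h the medians were 0.45 and 0.38. In untreated cells from 8 to 24 h the medians were −0.46 and −0.50. At 8 h of thapsigargin 7 of the 18 rose and 1 fell, while 27 of the 42 rose and 1 fell, with medians of 0.11 and 0.20. Among the genes printed above, Rps6 and Rplp0 differ in their annotated starts. Their log2 differences were, in that order, 0.29 and 0.42 at 24 h of IFN-γ and 0.38 and 0.42 at 8 h of thapsigargin. The starts used in these cells were not mapped, so the split need not separate TOP from other messengers.

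No member was called between the genotypes. Nfe2l2 itself ranged from 5.12 to 70.4 CPM in wild-type libraries and from 0.0973 to 0.859 CPM in Nrf2 -/- libraries, except Nrf2 -/- untreated 8 h replicate 3, at 7.62 CPM. That library also had the lowest summed share of its treatment and hour, 2.84%. Without it 78 members fell from 8 to 24 h untreated, and 37 rose and 5 fell at 8 h of thapsigargin. In 3 libraries, replicate 2 of each Nrf2 -/- group at 8 h, the title and the genotype tag disagree. The title was followed, and those libraries had at most 0.669 CPM of Nfe2l2.

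Between Nrf2 -/- and wild type, 0 members were called by edgeR and by DESeq2 in untreated, IFN-γ or thapsigargin libraries, where 0.0243%, 0.0547% and 0.51% of all genes were called by edgeR. At an unadjusted p under 0.05 there were 0, 6 and 0 members, against 6.7%, 8.9% and 9.4% of all genes. The 95% interval of the difference lay within 0.5 of 0 on the log2 scale for 79 members in each of the 3, and the exception was Rps16. The response to treatment also differed in 0 members between the genotypes at each of the 6 combinations of agent and hour by edgeR and DESeq2, where 0% of all genes were called by edgeR. At an unadjusted p under 0.05 there were 2, 1, 9 and 2 members for IFN-γ at 1, 8, 24 and 48 h. The shares of all genes there were 3.0%, 2.6%, 7.5% and 8.3%. For thapsigargin at 1 and 8 h there were 0 and 1 members, against 2.0% and 8.4% of all genes. Without wild-type IFN-γ 48 h replicate 2, 1 member differed at 48 h of IFN-γ, and when wild-type thapsigargin 8 h replicate 1 was left out, 2 differed at 8 h of thapsigargin. The intervals are wider here, with a median half-width of 0.27.

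Taken by genotype, 70 members rose and 0 fell at 24 h of IFN-γ in wild type (21.7% of all genes called higher, 21.5% lower), and 47 rose and 1 fell in Nrf2 -/- (22.6%, 24.7%), with medians of 0.39 and 0.24. At 48 h 71 rose and 1 fell in wild type (21.1%, 22%) and 71 rose and 0 fell in Nrf2 -/- (22.8%, 22.6%). At 8 h of thapsigargin 13 rose and 2 fell in wild type (28.4%, 27.1%), both below the shares of all genes. In Nrf2 -/- 51 rose and 1 fell (30.4%, 29.6%). The medians were 0.10 in wild type and 0.24 in Nrf2 -/-. The untreated Nrf2 -/- libraries at 8 h include replicate 3, with 7.62 CPM of Nfe2l2 and the lowest summed share of that hour (2.84%). The Nrf2 -/- response without it was not fitted. The wild-type comparisons rest on 2 libraries a group and the Nrf2 -/- ones on 3, and the tests of the difference between genotypes, given above, called none.

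Other genes of translation were read from lists, beside which stand the shares of all genes called higher and lower, 27.6% and 28.4% at 24 h of IFN-γ and 27.3% and 28.5% at 48 h. Of 18 genes with TOP messengers that the name rule did not take as members, 14 rose and 0 fell at 24 h of IFN-γ (median 0.27). At 48 h 13 rose and 1 fell (median 0.34). In untreated cells 14 of them fell and 0 rose from 8 to 24 h (24.4% of all genes called lower), led by Rack1 (−0.67 ± 0.06), a scaffold protein of the 40S head. Elongation and termination factors behaved unevenly: of 12, 6 rose and 1 fell at 24 h of IFN-γ, and 10 rose and 2 fell at 48 h, with Eef1b2 up by 0.63 ± 0.088 and the release factor Gspt1 down by 0.73 ± 0.221. Initiation factors were divided at 24 h, with 12 of 39 higher and 13 lower (median −0.02), near the shares of all genes, and at 48 h 20 were higher and 8 lower. Fau, which encodes a 40S protein fused to a ubiquitin-like tag, rose at 24 h (0.16 ± 0.066) and 48 h (0.24 ± 0.066) of IFN-γ. The lists of TOP, elongation and initiation genes share members.

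Most genes that build ribosomes rose with thapsigargin. Of 51 biogenesis factors 45 rose and 1 fell at 8 h, with a median of 0.64, against 0.17 for the ribosomal proteins, where 34.3% of all genes were called higher and 32.9% lower. Nop14, of the small subunit processome, rose by 1.36 ± 0.092. Of 12 host genes of small nucleolar RNAs 10 rose and 0 fell (median 1.49), led by Snhg12 (2.66 ± 0.074), and of 15 genes of RNA polymerase I 9 rose and 3 fell. With IFN-γ at 24 h, where 27.6% of all genes were called higher and 28.4% lower, 32 biogenesis factors rose and 2 fell (median 0.21), led by Noc4l (1.86 ± 0.17), and 10 host genes rose and 0 fell (median 0.33). In untreated cells from 8 to 24 h 43 biogenesis factors fell and 2 rose, where 24.4% of all genes were called lower and 3829 of 16460 higher. From 24 to 48 h 12 rose and 12 fell, where 4505 of 16460 genes were called higher and 25.7% lower. These 2 counts were near the shares of all genes, while 76 of the 80 ribosomal proteins fell.

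The 77 mitochondrial ribosomal protein genes, a list added after the values were seen, code for the separate ribosome of mitochondria. At 8 h of thapsigargin 17 rose and 34 fell (median −0.09), where 34.3% of all genes were called higher and 32.9% lower. At 48 h of IFN-γ 35 rose and 5 fell (median 0.14), where 27.3% of all genes were called higher and 28.5% lower. From 24 to 48 h without treatment 41 fell and 2 rose (median −0.17), where 25.7% of all genes were called lower and 4505 of 16460 higher. Among transcription factors of ribosomal and nucleolar genes, Myc fell by 1.06 ± 0.117 from 8 to 24 h untreated, Mycn rose by 2.27 ± 0.168 and Mycl fell by 1.75 ± 0.085 at 24 h of IFN-γ, and both moved the same way at 8 h of thapsigargin (2.45 ± 0.156 and −2.84 ± 0.091).

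**Figure D5:**
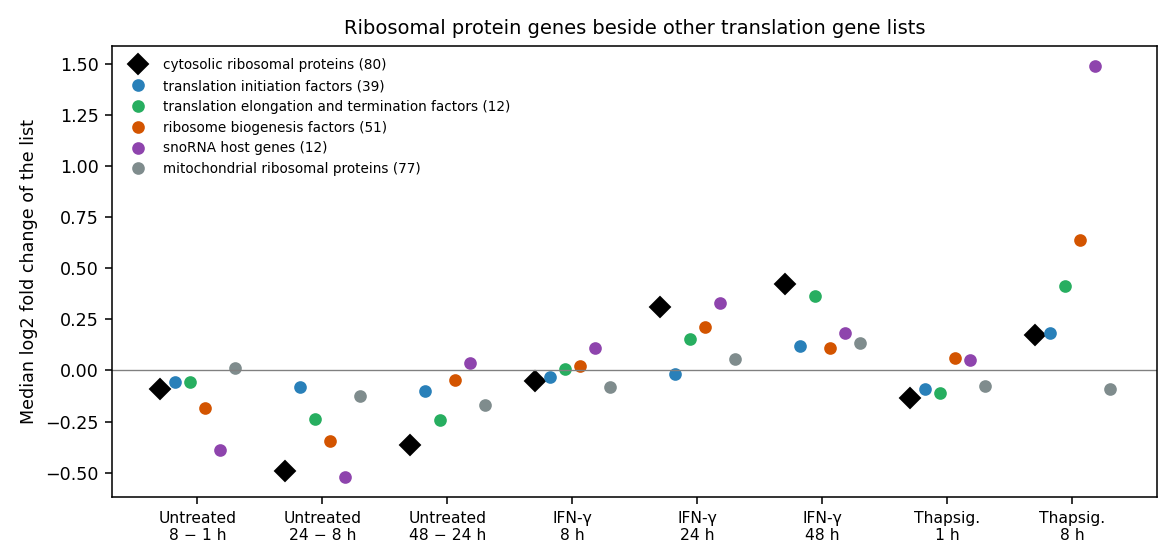
Median log2 fold change (y axis) of the 80 ribosomal protein genes (black diamonds) and of 5 lists of translation genes (circles, with the number tested) in 8 comparisons (x axis). The snoRNA host genes (1.49) and biogenesis factors (0.64) lie above the ribosomal proteins (0.17) at 8 h of thapsigargin, and the mitochondrial list (−0.09) lies below 0 there.

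Over the 20 group means, the genes outside the set whose log2 level was most like the members' mean were Eef1a1, the elongation factor that brings aminoacyl-tRNA to the ribosome (Pearson r = 0.980), Atic, of purine synthesis (0.979), Pkia, an inhibitor of protein kinase A (0.978), Pmpcb, of the mitochondrial processing peptidase (0.978), and Calcrl, a receptor chain (0.977). Within the set, Rps16 (0.621), Rpl11 (0.734), Rpl36al (0.782), Rps27l (0.818) and Rpl37a (0.823) were least like the mean. Groups share hours and treatments and are not independent, so these values are descriptions.

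Markers of other cell types were read in the same libraries. Aif1 of microglia and Cldn5 of endothelium were listed at 0 in every library. The 6 microglial markers summed to at most 7.25 CPM and the 6 endothelial, mural and fibroblast markers to at most 3.70 CPM. The 6 astrocyte markers summed to 53.3 to 301.7 CPM, lowest after 8 h of thapsigargin. Of these, Aldoc ranged from 36.4 to 287.6 CPM, while Slc1a2 reached at most 41.8, Gfap 29.8, Aqp4 18.5, Aldh1l1 11.5 and Gja1 1.28 CPM. The 6 neuronal markers summed to 673 to 1737 CPM, lowest untreated at 48 h. Most of this was Map2 (548.6 to 1654 CPM) and Tubb3 (39.2 to 403.7 CPM). Syt1 and Snap25 reached at most 19.5 and 18.4 CPM, and Rbfox3 and Slc17a7 at most 0.919 and 0.147 CPM. The part of the astrocyte and neuronal values in the members' differences was not tested.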

How the data were processed

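RNA-seq of 50 libraries was analysed. The authors deposited whole-number counts of reads per gene and, in a separate table, estimated counts per isoform, and the submitters' processing notes name STAR, featureCounts, kallisto and edgeR without versions. Not given in the sources used here are the genome build used for counting, the annotation, the strand setting and the treatment of reads with several matches. From the deposited counts, genes were filtered with edgeR's filterByExpr over the 20 groups (16460 genes kept of 39056), scaled by TMM and fitted with 1 mean per group in edgeR 4.0.16 (limma 3.58.1, R 4.3.3), robust quasi-likelihood F-test, Benjamini-Hochberg adjusted p under 0.05. CPM are TMM-scaled, except those of the selection rule, the cell type markers, the levels per kb and the comparison of the deposited tables. These use library size alone, and shares of reads are unscaled. Estimated counts were summed per gene, rounded and fitted in the same way. SE is the absolute log2 fold change over the root of F.

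Depth is given in the report, and counting error is covered through the fit. On simulated counts for IFN-γ against untreated at 24 h (15568 genes), 12 of 50 genes changed 1.2-fold and 48 of 50 changed 1.5-fold were recovered. The simulation changed 50 genes at each of the folds 1.2, 1.5, 2.0 and 3.0. In the libraries of that comparison, 27.6% of all genes were called higher and 28.4% lower. An adjusted p depends on how many genes change, so the recovery is not the sensitivity of the tests in the report.

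Groups follow the sample titles. The 3 libraries whose genotype tag differs from the title were kept. The design text names 4 mutant replicates and 3 per group were analysed here. The tissue tag gives whole brain, while the protocol gives cortex. The genes named in the text are the 3 largest called changes per direction of a comparison, the 3 highest and 3 lowest levels per kb, the members fixed by role and the paralog pairs. From each other list it is the called gene with the largest rise and fall, and the 5 most like genes. Members without a call, and those that differ between tables, were named after their values were seen. The members and lists were chosen with earlier results of these data known. Alternatives were DESeq2 1.42.0, library size only, TMM without the members, no filter, the isoform table, each library left out, and without the 3 libraries in doubt. Start sequences are from RefSeq, GRCm38.p6. Some items are not reported here.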

Additional observations from a re-analysis of the deposited data

Results flagged for a closer look

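The difference between treated and untreated cells changed with the hour in many members, by a test of the change in response itself (edgeR, Benjamini-Hochberg adjusted over all genes). The response to IFN-γ was higher at 24 than at 8 h in 68 members and lower in 0, where 15.8% of all genes were called higher, with a median of 0.36. Rps19 led these with a difference in response of 0.62 ± 0.095. Scaling by library size alone called 78 members higher and shifted the median of all genes to 0.23.

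The response to IFN-γ was higher at 48 than at 24 h in 14 members and lower in 1, where 22% of all genes were called higher and 20.9% lower, so the members' share was near or below the background. The 1 was Rpl6 (−0.53 ± 0.089), and Rpl38 led the 14 (0.47 ± 0.1). The count of 15 became 6 without wild-type IFN-γ 24 h replicate 1, wild-type IFN-γ 48 h replicate 1 or wild-type untreated 48 h replicate 2, 7 without Nrf2 -/- IFN-γ 24 h replicate 1, 8 without Nrf2 -/- untreated 24 h replicate 3 and 9 without wild-type untreated 24 h replicate 1. It became 30 without wild-type untreated 48 h replicate 1, and leaving out wild-type IFN-γ 48 h replicate 2 gave 33.

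The response to thapsigargin was higher at 8 than at 1 h in 54 members and lower in 1, where 27.1% of all genes were called higher and 28.7% lower, with a median of 0.31. Rpl36al (1.03 ± 0.095) was among the highest, and the 1 lower member was Rpl37a (−0.34 ± 0.099).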

How the results depend on the processing

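For the members picked by the rule of largest called changes, in the comparisons that picked them, 911 of 974 values under alternatives kept direction and call, 63 kept direction without the call and 0 reversed. Rpl5 at 8 h of thapsigargin, which is not among these values, was called in opposite directions by the tables. The calls lost were mainly those of Rps16 with thapsigargin, of Rps21, Rps13 and Rpl9 at 1 h of thapsigargin and of Rpl11 from 1 to 8 h untreated. The counts at 24 and 48 h of IFN-γ, and untreated from 8 to 24 and from 24 to 48 h, stayed within 1.5-fold under all alternatives. Other counts moved more, and the cause was not tested. Called members were, for IFN-γ 24 against 8 h (25 in the report), 2 in the isoform table, 1 by library size only, 13 without the filter and 15 with TMM without the members. For IFN-γ 8 against 1 h (24) they were 6 and 53 in the first 2. For IFN-γ against untreated at 8 h (0) they were 1, 5 and 1. For the IFN-γ response at 48 against 24 h (15) they were 8 in the isoform table and 4 by library size only (1 higher, 3 lower). DESeq2 gave 10 there. For thapsigargin at 1 h (8) they were 25 by DESeq2, 3 in the isoform table, 0 by library size only, 17 without the filter, 13 with TMM without the members and 5 without the 3 libraries in doubt. Library size only gave 26 for thapsigargin at 8 h (50), for thapsigargin 8 against 1 h (53) and for the thapsigargin response at 8 against 1 h (55). For untreated 8 against 1 h (10) they were 17 by DESeq2 and 4 in the isoform table. With library size only the median of all genes was −0.13 and 0.13 for IFN-γ at 8 and 24 h and −0.20 for untreated 24 against 8 h.

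With 1 library left out, called members ranged from 67 to 78 and 73 to 78 for IFN-γ at 24 and 48 h, from 77 to 78 and 70 to 78 for untreated 24 against 8 and 48 against 24 h, and from 36 to 53 for thapsigargin at 8 h. The ranges were 1 to 29 for thapsigargin at 1 h, 6 to 17 for untreated 8 against 1 h, 0 to 7 for IFN-γ at 8 h, 10 to 33 for IFN-γ 24 against 8 h, 6 to 33 for IFN-γ 8 against 1 h and 6 to 33 for the IFN-γ response at 48 against 24 h. For the genotype difference in response they were 0 to 1 for IFN-γ at 48 h and 0 to 2 for thapsigargin at 8 h. No paired analysis was possible because the replicate numbers follow the order of the samples and pair no libraries across groups.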
